A study of Mus musculus with 44 samples.

Results

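Among the transcripts measured in Surf1 knockout and wild-type mice, a set of 50 probes had levels that followed the animal. The tissues were liver, white adipose tissue and cortex of the brain. A mouse with a high value in its liver tended to have a high value in its fat and in its brain. The degree differed between probes, and in some a single animal carried most of it. The members were chosen from the measured values. For each probe, the mean of its tissue and genotype group was subtracted from the deposited processed value. Probes were kept where the detection score was above 0.95 on at least 8 arrays in liver, 8 in brain and 6 in fat, and the remaining deviations were correlated between liver and fat of the same 12 animals and between liver and brain of the same 9 animals. The 50 probes with the highest values of the lower of these 2 correlations are the members, out of 9078 probes that passed the detection filter and 25697 probes in all. The correlations that chose them are given as a description, with no test.

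In mice that do not all carry the same alleles, a transcript can differ between animals in every tissue where it is made when inherited variants near its gene differ, and a variant under a hybridisation probe can change the measured signal without a change in the transcript. States of the whole animal, such as feeding, time of day or circulating hormones, also act on many tissues of a mouse. These are general background. Whether any of them applies to the members was not tested.

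The study profiled female mice of strain B6D2F1/J aged 8 to 12 months with and without Surf1, the gene of an assembly factor of cytochrome c oxidase, the last enzyme of the respiratory chain. Total RNA of each tissue was hybridised to Illumina mouse beadchips in 1 colour. The 44 arrays comprised 8 wild-type and 8 knockout livers, 6 wild-type and 6 knockout fat samples, and 8 wild-type and 8 knockout brain cortices. Control mice were Surf1+/+ and knockout mice Surf1-/-, with no other treatment named in the labels, and the sources used here do not say how the knockout line was bred onto this strain. The sample titles carry a number, taken here as the animal, although the labels do not say that it is one, and no number had different genotypes in different tissues. By these numbers there were 23 animals, named below by genotype and number as in the titles (WT_135, KO_164). Liver and fat came from 12 of them (6 wild-type, 6 knockout), and 9 of these (5 wild-type, 4 knockout) also gave brain. The 33 arrays of these 12 animals, with numbers below 300, entered the correlations, whereas the 11 arrays of other animals, with numbers above 500, were 4 livers and 7 brains.

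The members are given by their deposited probe identifiers alone, because the identifiers did not name the values. Under the deposited names, 1 of 7 hepatocyte marker probes was detected in liver, 1 of 7 neuron marker probes in brain and 4 of 5 adipocyte marker probes in fat, where 43.3%, 49.2% and 48.5% of all probes were detected. The tissue labels and the loss of Surf1 could therefore not be checked through named genes, and no gene, function or sequence is given to any member. Detected probes made up 43.1 to 46.7% on the 12 liver arrays of animals below 300 and as little as 31.3% over all 16 liver arrays, against 46.4 to 51.1% in fat and 42.8 to 52.9% in brain. In fat, the wild-type arrays of animals WT_135 and WT_136 lay among the knockout arrays on the first principal component (33.9% of the variance), with scores of 5.06 and 10.5 against 4.07 to 15.5 in the knockouts and -21.5 to -13.8 in the other wild types. As these are bulk tissues, fewer cells of a type and less RNA per cell cannot be told apart. The number of arrays limits the precision of every value.

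Over all 9078 probes the liver and fat deviations of an animal were nearly unrelated, with a median correlation of 0.08 across 12 animals, and the medians were 0.08 for liver with brain and 0.05 for fat with brain. The members stood at the upper edge of this distribution. Their liver with fat correlations ran from 0.634 to 0.976 (median 0.770) and their liver with brain correlations from 0.639 to 0.981 (median 0.739). The lower correlation was above 0.8 in 14 members and above 0.7 in 25. The cut fell in a continuous run of values. Inside it were ILMN_2765015 at 0.636 and ILMN_2763347 at 0.634, and outside it ILMN_2734712 at 0.633 and ILMN_2703079 at 0.632.

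**Figure D1:**
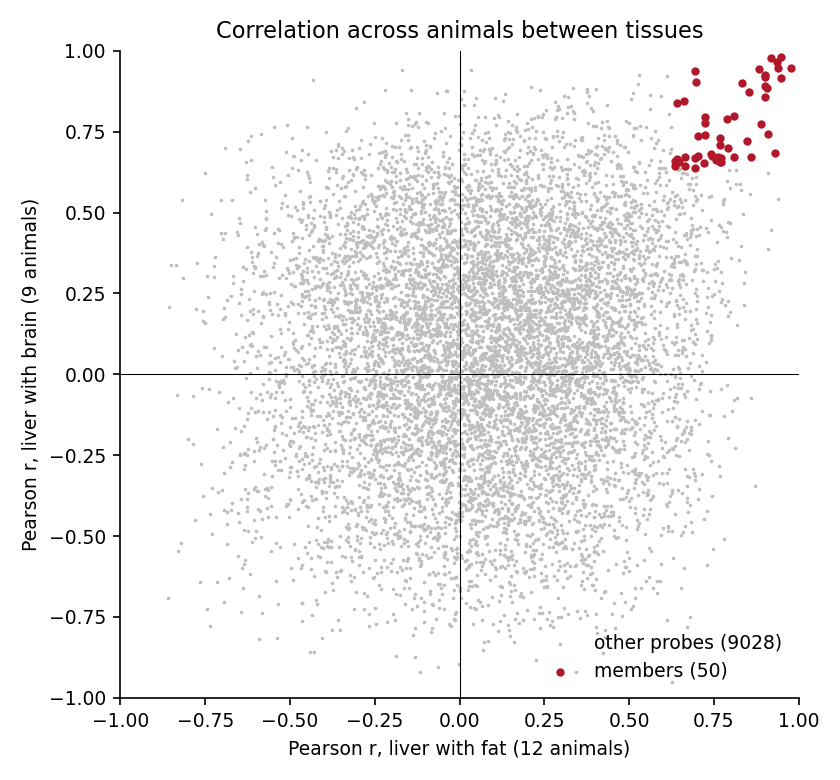
Correlation of an animal's liver deviation with its fat deviation (x axis, 12 animals) and with its brain deviation (y axis, 9 animals) for the probes that passed the detection filter, with the members marked. The members lie in the upper right corner, with both correlations at 0.634 or above, because the rule chose them there.

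Large correlations of both tissues were more often positive than negative. Both exceeded 0.5 in 179 probes and both lay below -0.5 in 29. At 0.6 the counts were 69 and 10, at 0.7 they were 25 and 2, and at 0.8 they were 14 and 0. Fat with brain was the pair of tissues that the rule did not correlate, but both tissues had entered it through liver. All 50 members had a fat with brain correlation above 0, from 0.262 to 0.985 with a median of 0.741, against 55.1% of all probes above 0. In 44 members it exceeded 0.5, and in 3 it was below 0.4.

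An animal that took no part in the choice gives values that the rule did not use. The rule was therefore repeated without each animal in turn, apart from the detection filter, which used all arrays, and the animal left out was then examined over the 50 probes so chosen. Its fat deviations correlated with its own liver deviations across these probes with a median of 0.693, and all 12 animals were above 0, from 0.468 in animal KO_175 to 0.870 in animal WT_135. In 12 of 12 animals the own liver correlated with the fat more strongly than any of the other 11 livers did. The median over the other livers, taken for each animal, ran from -0.157 to 0.219, with a median of 0.04 over animals. Single other livers ranged from -0.545, for the fat of KO_175, to 0.632, for that of KO_241. The own liver and fat deviations had the same sign in 32 to 41 of the 50 probes, with a median of 34.5. A correlation over probes weighs most those with large deviations, so it does not show that every chosen probe follows the animal. Probes are not independent replicates, and these values are given with no test.

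For brain the own-liver correlation had a median of 0.576 and was above 0 in 9 of 9 animals. It was highest in animals WT_138 and WT_148, at 0.671 in each, and lowest in animal WT_136, at 0.199. The own liver ranked above the other 8 livers in 8 of 9 animals, and animal WT_136 was the exception, where it ranked 2. The median over the other livers, taken for each animal, ran from -0.179 to 0.152, with a median of 0.01 over animals. Single other livers ranged from -0.508, for the brain of WT_138, to 0.438, for that of WT_148. The own liver and brain deviations had the same sign in 26 to 39 of the 50 probes, with a median of 33. The 50 probes chosen without an animal shared between 31 and 45 probes with the members.

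**Figure D2:**
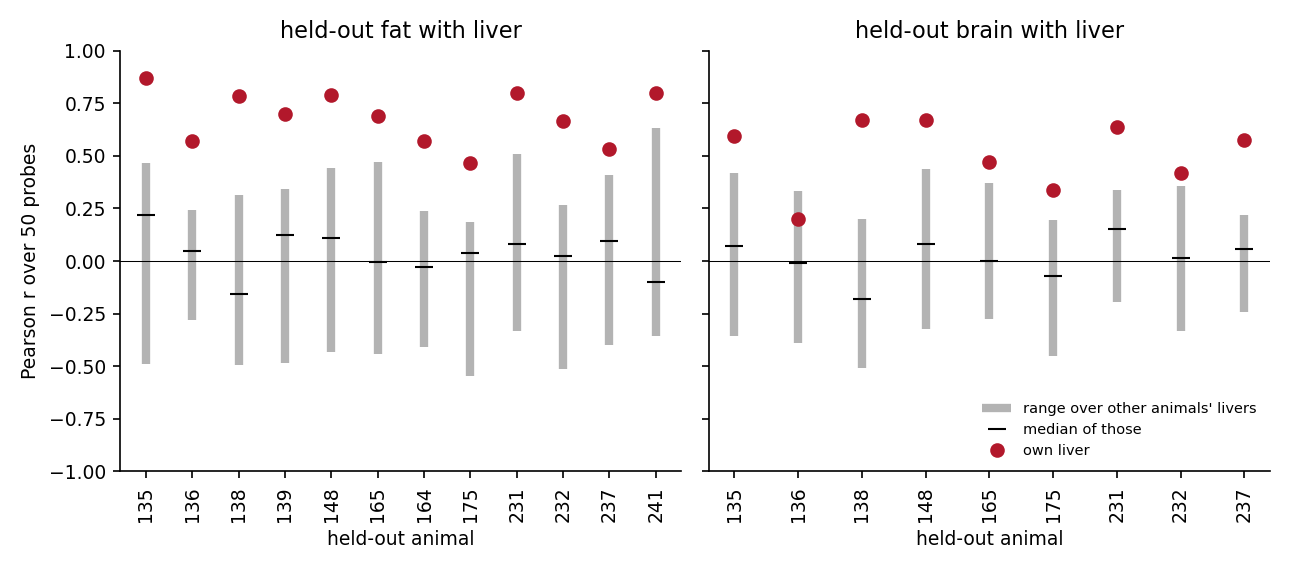
Correlation across the 50 probes chosen without an animal between that animal's fat or brain deviations and the liver deviations of itself and of the other animals, by animal number. The own-liver values lie at 0.468 or higher for fat and at 0.199 or higher for brain, and the own liver is the highest in every animal except WT_136 for brain.

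The member with the highest lower correlation was ILMN_1238691, with 0.948 between liver and fat, 0.981 between liver and brain and 0.985 between fat and brain. Its values are deposited log2 values, as are all levels by animal below unless background-corrected signal is named. Tissues were normalised separately, so levels are read within a tissue. In liver it stood at 9.95 in animal WT_138 and 9.75 in animal WT_148, at 9.22 to 9.40 in animals KO_164, KO_237 and KO_241, and at 7.89 to 8.14 in the other 7 animals of the correlation. In fat the same sets of animals recurred, with 9.13 and 9.16 in WT_138 and WT_148, 8.17 to 8.41 in KO_164, KO_237 and KO_241, and 7.30 to 7.71 in the rest. In brain, WT_138 and WT_148 stood at 8.83 and 8.85, animal KO_237 at 8.13, and the remaining 6 at 7.30 to 7.47.

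The highest values of ILMN_1238691 were thus in 2 wild-type animals and the intermediate ones in 3 knockout animals, in each tissue where they were sampled, and wild-type and knockout values overlapped. Arrays outside the correlation also differed from each other. The livers of WT_581, WT_679 and KO_597 stood at 8.97, 8.78 and 9.05, and that of KO_598 at 7.71. Among the other brains, KO_918, KO_1060, KO_1160 and WT_1240 stood at 7.89 to 8.10, and WT_928, WT_1048 and KO_1059 at 7.32 to 7.42. No array of these other animals reached the values of WT_138 and WT_148 in its tissue.

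ILMN_2745151 and ILMN_1233991 ordered the animals in nearly the same way. ILMN_2745151 stood at 8.25 and 8.38 in the livers of WT_138 and WT_148 and at 7.52 to 7.94 in the other 10. In fat, WT_138 and WT_148 were at 8.19 and 8.25, KO_241 and KO_164 at 8.08 and 8.05, KO_237 at 7.69 and the rest at 7.18 to 7.47. In brain, WT_138, WT_148 and KO_237 were at 8.49, 8.28 and 8.06 and the others at 7.21 to 7.69.

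ILMN_1233991 ran in the opposite direction, so that animals WT_138 and WT_148 were the lowest in every tissue. They stood at 7.34 and 7.28 in liver against 7.61 to 7.91 in the other 10 animals. In fat they stood at 7.28 and 7.14, animals KO_164, KO_237 and KO_241 at 7.71 to 7.85, and the others at 8.06 to 8.41. In brain they stood at 7.27 and 7.18, and the others at 8.10 to 8.39. Over the 33 stacked arrays ILMN_1238691 correlated with ILMN_2745151 at 0.89 and with ILMN_1233991 at -0.87. Over the 11 arrays of other animals, which the rule did not correlate, these values were 0.86 and -0.39. Deviations for the 11 arrays, here and below, were taken from the group means of those arrays alone. The groups held 2 wild-type livers, 2 knockout livers, 3 wild-type brains and 4 knockout brains, so these correlations rest on few free values.

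**Figure D3:**
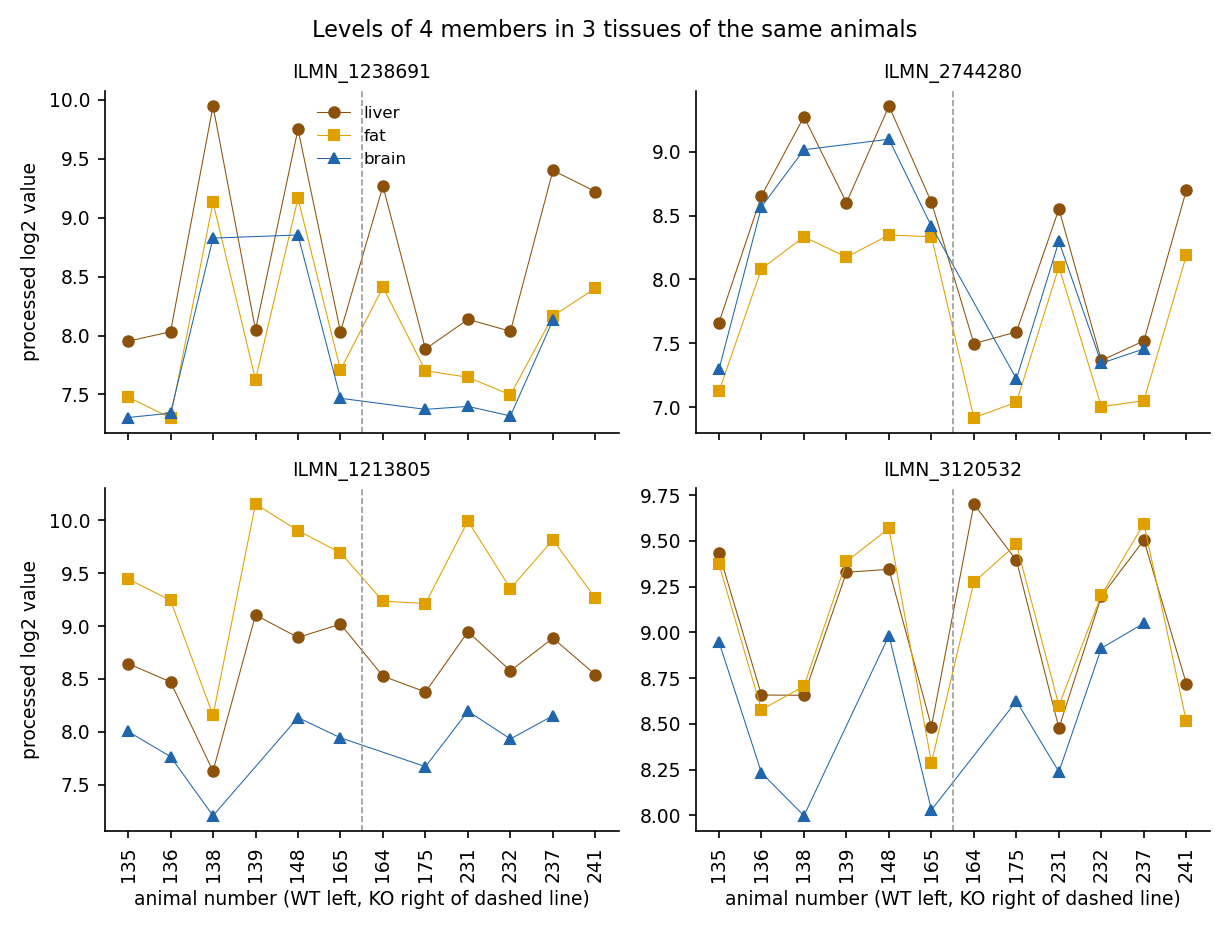
Deposited log2 value of 4 members (ILMN_1238691, ILMN_2744280, ILMN_1213805 and ILMN_3120532) on the arrays of animals below 300, by tissue and animal number, with genotypes marked. Arrays of animals above 500 are not shown. Animals that are high in one tissue are high in the others, as for ILMN_1238691 in animals WT_138 and WT_148, at 9.95 and 9.75 in liver.

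ILMN_2744280 divided the animals differently. In liver, animals WT_138 and WT_148 stood at 9.27 and 9.36, animals WT_136, WT_139, WT_165, KO_231 and KO_241 at 8.55 to 8.70, and animals WT_135, KO_164, KO_175, KO_232 and KO_237 at 7.37 to 7.66. In fat the last 5 animals stood at 6.92 to 7.13 and the other 7 at 8.08 to 8.35, so that WT_138 and WT_148 no longer stood apart. In brain, WT_138 and WT_148 were at 9.01 and 9.10, WT_136, WT_165 and KO_231 at 8.30 to 8.57, and WT_135, KO_175, KO_232 and KO_237 at 7.22 to 7.46. Each genotype had animals on either side of the gap. The probe was detected on 12 of 16 liver, 10 of 16 brain and 8 of 12 fat arrays.

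ILMN_1238674 followed ILMN_2744280 closely, with a correlation of 0.94 over the 33 arrays and 0.86 over the 11 arrays of other animals. Its livers stood at 9.19 and 9.34 in WT_138 and WT_148, at 8.52 to 8.66 in the same 5 intermediate animals and at 7.20 to 7.39 in the same 5 low animals. In fat its low animals were at 7.01 to 7.19 and the others at 7.94 to 8.43. This probe was near the detection limit in many samples, with detection on 8 of 16 arrays in liver, 9 of 16 in brain and 10 of 12 in fat. All 4 other livers were among the low values of both probes, at 7.30 to 7.55 for ILMN_2744280 and 7.21 to 7.47 for ILMN_1238674.

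A group of 4 members was lowest in animal WT_138 among the animals of the correlation in every tissue. ILMN_1213805 stood at 7.63 in the liver of WT_138 and at 8.38 to 9.10 in the other 11 animals, at 8.16 against 9.21 to 10.15 in fat, and at 7.21 against 7.67 to 8.19 in brain. The order of the other animals was also alike between tissues: WT_139 and KO_231 were among the highest and KO_175 among the lowest in both liver and fat. Its correlation was 0.976 for liver with fat and 0.948 for liver with brain. The lower correlation was still 0.837 without animal WT_138.

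ILMN_2662468 correlated with ILMN_1213805 at 0.98 over the 33 arrays and at 0.70 over the 11 others. Animal WT_138 had 7.29 in liver against 8.09 to 8.84 in the other animals of the correlation, 7.53 against 8.80 to 9.74 in fat, and 7.13 against 7.46 to 7.96 in brain. ILMN_1228521 stood at 8.08, 7.70 and 7.30 in animal WT_138, against 8.68 to 9.37, 8.82 to 10.13 and 8.23 to 9.09. All 4 livers outside the correlation were below those ranges. For ILMN_2662468 they stood at 7.28 in WT_581, 7.49 in WT_679, 8.04 in KO_597 and 8.02 in KO_598. For ILMN_1228521 they stood at 7.28, 8.32, 7.61 and 8.00 in the same order.

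ILMN_2943738, the last of the 4, had the widest range of them in fat. Animal WT_138 stood at 6.97 there and the other 11 animals at 9.22 to 11.86. In liver animal WT_138 stood at 7.16 against 7.97 to 9.25, and in brain at 7.11 against 7.68 to 8.49. Over the 11 arrays of other animals it correlated with ILMN_1228521 at 0.95, with WT_581 and KO_597 at 7.14 and 7.22 in liver. The SD of its animal mean deviation, 0.738, was close to that of ILMN_2659185, which had the largest at 0.740, and above that of ILMN_1238691 at 0.675.

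ILMN_3120532 belonged to no group and divided the animals a further way. In liver, animals WT_135, WT_139, WT_148, KO_164, KO_175, KO_232 and KO_237 stood at 9.20 to 9.70 and animals WT_136, WT_138, WT_165, KO_231 and KO_241 at 8.48 to 8.72. In fat the same 7 animals were at 9.20 to 9.59 and the same 5 at 8.29 to 8.71. In brain, WT_135, WT_148, KO_175, KO_232 and KO_237 were at 8.62 to 9.05 and WT_136, WT_138, WT_165 and KO_231 at 8.00 to 8.24. The other arrays fell on either side, with brains at 8.07 to 8.31 in KO_918, WT_1048, KO_1060, KO_1160 and WT_1240 and at 8.75 and 8.92 in KO_1059 and WT_928. The liver of KO_598, at 7.18, was lower than any other.

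ILMN_2659185 was low in animals WT_148, KO_164, KO_231, KO_232 and KO_237. They stood at 7.11 to 7.30 in liver against 8.24 to 8.99 in the other 7, at 6.76 to 7.14 in fat against 8.57 to 9.52, and, without KO_164, at 7.13 or lower in brain against 7.27 to 8.75. Detection was reached on 8 of 16 arrays in liver, 8 of 16 in brain and 10 of 12 in fat, so its low values lie near the detection limit. ILMN_2742345 and ILMN_2993083 formed a pair of opposite sign, with a correlation of -0.88 over the 33 arrays and -0.85 over the 11 others. Animal WT_135 had the highest ILMN_2742345 value in every tissue, at 10.66 in liver, 10.95 in fat and 9.65 in brain. Among the animals of the correlation it had the lowest ILMN_2993083 values in liver and brain, at 7.80 and 7.38, and 7.67 in fat, where KO_241 was lower at 7.60. Of the brains outside the correlation, WT_1240, KO_1060 and KO_1160 were lower still, at 7.24 to 7.35.

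The members fell into 6 groups of correlated probes that together held 15 of them, and 35 were in none. Groups were joined by average linkage on 1 minus the absolute correlation over the 33 arrays, with a cut at 0.2. The remaining groups were ILMN_2724156 with ILMN_2449449, at 0.83 over the 33 arrays and 0.65 over the 11 others, and ILMN_2673441 with ILMN_2763347, at -0.81 and -0.13. Of 1225 pairs of members, 30 had an absolute correlation above 0.7, and 27 of these had the same sign over the 11 other arrays. No share over pairs of all probes stands beside these counts, so nothing particular to the members is read from them.

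**Figure D4:**
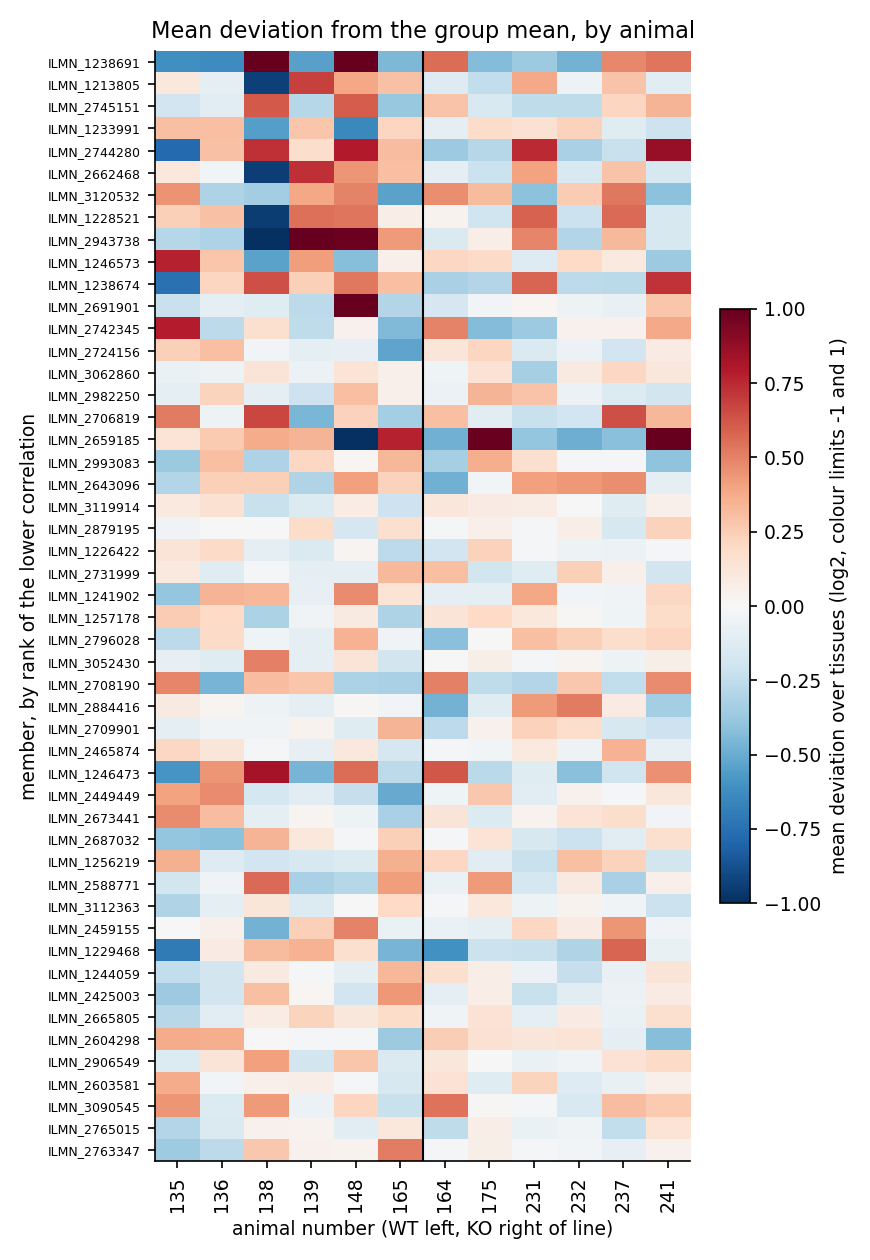
Deviation of each member from the mean of its tissue and genotype group (log2, colour), averaged over the sampled tissues of each animal. Members are in rows and the animals that entered the correlations in columns, by genotype and number. Agreement between the tissues of an animal cannot be seen in these averages. Among the rows that stand out are the 4 members that are lowest in animal WT_138.

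Some members fell into the same sets of animals in all tissues. For each probe the 9 animals with all 3 tissues were divided at the widest gap between neighbouring values. The division was identical in the 3 tissues for 14 of 50 members (28%), against 24 of all 9078 probes (0.264%). In 10 of these members 1 animal stood alone. In the other 4, ILMN_1233991, ILMN_2744280, ILMN_3120532 and ILMN_1238674, each side held more than 1 animal, and 5 of all probes had such a division. The rule favours such probes, so these shares are a description.

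The members varied more between animals than most probes. The median SD of the deviations was 0.267 in liver against 0.125 over all 9078 probes, 0.319 against 0.153 in fat and 0.255 against 0.161 in brain. In 11 members the SD was in the top 10% of all probes in every tissue, against 72 of all probes (0.793%). Their levels were ordinary, with a median percentile of 48.4 in liver, 41.2 in brain and 51.5 in fat. Of the members, 27 were detected on every array, against 61.9% of all probes.

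Single animals carried some of the correlations. Leaving out each animal in turn, the lower correlation stayed above 0.5 in 37 members and above 0.7 in 13. It fell furthest in ILMN_2691901, from 0.858 to -0.27 without animal WT_148, which alone was high, at 9.41 in liver against at most 8.64 on any other array, 9.20 in fat against at most 7.70 and 8.44 in brain against at most 7.78. ILMN_1244059 fell from 0.655 to 0.23 without animal WT_165, and ILMN_3052430 from 0.695 to 0.27 without animal WT_138. Animal WT_138 had the largest deviation in 13 members (26%), against 4.8% of all probes, and animal WT_148 in 4 (8%), against 2.73%. For animals WT_135 and WT_165 the shares were 20% and 18%, against 16.3% and 18.4% of all probes.

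Variation shared by whole arrays was also set beside the members. The first principal component of the deviations held 37.8% of the variance in liver, 23.9% in fat and 58.3% in brain. The median absolute correlation with it was 0.336 in the members against 0.507 in all probes in liver, 0.346 against 0.339 in fat and 0.424 against 0.613 in brain. With the share of detected probes per array, the medians were 0.294 against 0.458, 0.342 against 0.261 and 0.396 against 0.626. The members thus had lower medians than all probes in liver and brain and slightly higher ones in fat.

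Knockout and wild-type animals were compared next, since the rule had removed the group means. No member passed in any tissue at an adjusted p under 0.05, in limma fits over all detected probes with Benjamini-Hochberg adjustment on background-corrected log2 signal. In liver 0 of 50 members and 0% of 11117 probes passed, in fat 0 of 50 and 0.0401% of 12468, and in brain 0 of 50 and 0% of 12648. At an unadjusted p under 0.05 there were 4 members (8%) in liver against 6.04% of all probes, 12 (24%) in fat against 14.6% and 5 (10%) in brain against 2.45%. In means of an animal's liver and fat, 0 of 50 members and 0.219% of 10053 probes passed, and 12 members (24%) had an unadjusted p under 0.05, against 11.8%. With the deposited values in place of these, no member passed in any of the 4 comparisons.

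In liver, ILMN_3119914 had the smallest p among members higher in the knockout. Its background-corrected log2 signal ran from 4.73 to 6.13 (median 5.41) in wild-type animals and from 5.95 to 6.77 (median 6.29) in knockouts. The groups overlapped, with 6 of 8 knockout livers above every wild-type liver, and the difference was 0.85 (SE 0.21, limma adjusted p = 0.275). The probe was detected on 12 of 16 liver arrays, with deposited log2 means of 7.46 in wild types and 7.73 in knockouts. Among members lower in the knockout ILMN_1246473 had the smallest p. Its background-corrected log2 signal ran from 11.01 to 12.00 (median 11.72) in wild types and 10.38 to 11.38 (median 11.02) in knockouts. The difference was -0.61 (SE 0.17, limma adjusted p = 0.323).

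In fat, ILMN_1257178 had a background-corrected log2 signal of 4.38 to 6.35 (median 5.02) in wild types. In knockouts it ran from 5.99 to 7.01 (median 6.66). In 4 of 6 knockouts it was above every wild type, and the difference was 1.35 (SE 0.32, limma adjusted p = 0.0826). It was detected on 9 of 12 fat arrays, and its deposited log2 means lay closer, at 7.11 in wild types and 7.63 in knockouts. ILMN_2425003 had the smallest p in the other direction, at -0.66 (SE 0.18, limma adjusted p = 0.127). These values depended on the wild-type arrays that lay among the knockouts. Without animal WT_135 the limma adjusted p was 0.0338 for ILMN_1257178 and 0.0443 for ILMN_1241902. Without animal WT_136 it was 0.0155 for ILMN_1257178, 0.0353 for ILMN_2425003 and 0.0441 for ILMN_1226422. Over all probes the count of calls in fat rose from 5 to 92 and 426 in these fits.

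In brain even the members of smallest p had adjusted p-values near 1. The background-corrected log2 signal of ILMN_1246473 ran from 6.86 to 10.52 (median 8.16) in wild types and from 6.35 to 8.04 (median 6.76) in knockouts. In 6 of 8 knockouts it was under every wild type, and the difference was -1.47 (SE 0.47, limma adjusted p = 0.999). ILMN_2796028 differed by 0.70 (SE 0.26, limma adjusted p = 0.999). In the animal means of liver and fat, ILMN_1257178 differed by 1.14 (SE 0.28, limma adjusted p = 0.102) and ILMN_1241902 by -0.69 (SE 0.21, limma adjusted p = 0.208). Without animal WT_135 the adjusted p of ILMN_1257178 in these means was 0.0405, and without animal WT_136 it was 0.0366, with ILMN_3119914 at 0.0438. The fitted difference was above 0 in all 3 tissues in 13 members (26%), against 12.9% of the 9078 probes tested in each, and below 0 in all 3 in 12 (24%), against 11.3%. The tissues share animals, and the members were chosen for agreement between the tissues of an animal, so nothing is read from these shares.

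The knockout effect was also compared between tissues, which the title of the series addresses. No member passed at an adjusted p under 0.05: 0 of 50 for liver against fat, where 0.537% of 10053 probes passed, 0 of 50 for fat against brain, where 0.172% of 10473 did, and 0 of 50 for liver against brain, where 0.0107% of 9353 did. In each of these limma interaction contrasts 1 member had an unadjusted p under 0.05, against 8.54%, 6.87% and 3.82% of all probes. ILMN_2687032 had the smallest p for liver against fat, with knockout differences of 0.42 and -0.15, which differed by 0.58 (SE 0.25, limma adjusted p = 0.423). It also had it for liver against brain, at 0.47 (SE 0.23, limma adjusted p = 0.995). For fat against brain it was ILMN_1226422, at 0.55 (SE 0.22, limma adjusted p = 0.524). The deposited values likewise gave no member in these contrasts. These fits did not pair the tissues of an animal.

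The animal numbers fall into a range below 300 and a range above 500, and the labels do not say what divides them. The correlations used animals below 300, and the 4 livers and 7 brains above 500 entered the group means alone. With genotype in the limma fit, 20 of 50 members (40%) differed between the ranges in liver at an adjusted p under 0.05, against 50.3% of all 11117 probes. Those that passed and were higher above 500 were 5 of 50 members, against 20.5% of all probes, and those lower were 15 of 50, against 29.8%. In brain 16 of 50 members (32%) differed, against 52.1% of all 12648 probes, with 2 of 50 higher (26.5% of all probes) and 14 of 50 lower (25.6% of all probes). In total, members differed between the ranges no more often than probes in general. Detected probes made up 31.3 to 40.8% on the 4 liver arrays above 500 and 43.1 to 46.7% on the 12 below 300. In brain the shares overlapped, at 48.8 to 51.7% on the 7 arrays above 500 and 42.8 to 52.9% on the 9 below 300. Their part in the results was not tested.

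Levels and differences by number range, here and below, are in background-corrected log2 signal and not in the deposited values. The same arrays have other levels on the deposited scale. In liver, ILMN_1228521 had the smallest adjusted p, with 7.10 to 9.06 (median 8.48) below 300 and 4.87 to 7.54 (median 6.46) above 500. Of the 4 livers above 500, 3 were under every liver below 300, and the difference was -2.12 (SE 0.36, limma adjusted p = 0.000124). ILMN_3090545 was lower by a fitted -0.72, with 4 of 4 livers under all others at 9.89 to 10.05 against 10.20 to 11.07. ILMN_2673441 and ILMN_2665805 were lower too, at -0.75 and -0.47. The members higher above 500 were led by ILMN_3062860, with 9.88 to 10.43 against 8.93 to 9.66 and a difference of 0.62 (SE 0.12, limma adjusted p = 0.000349). ILMN_3112363, ILMN_1244059 and ILMN_2687032 were higher by 0.90, 0.94 and 0.45.

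In brain, ILMN_1241902 ran from 6.88 to 8.59 (median 7.75) below 300 and from 5.83 to 6.76 (median 6.23) above 500. All 7 brains above 500 were under every other brain, and the difference was -1.42 (SE 0.23, limma adjusted p = 7.02e-05). ILMN_2604298 also had no overlap, with 6.48 to 7.51 against 5.86 to 6.32 and a difference of -0.84. ILMN_2643096 and ILMN_2982250 were lower by a fitted -0.84 and -1.27. The 2 members higher above 500 were ILMN_1229468, at 1.42 (SE 0.28, limma adjusted p = 0.000415), and ILMN_2765015, at 0.44 (SE 0.10, limma adjusted p = 0.00104).

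Of the 50 members, 6 (12%) passed in both tissues, against 26.3% of the 9353 probes tested in both. Another 14 (28%) passed in liver alone, against 23.4%, 10 (20%) in brain alone, against 26.6%, and 20 (40%) in neither, against 23.7%. Passing in 1 tissue does not show a difference between tissues. ILMN_2744280, ILMN_2706819, ILMN_2643096 and ILMN_3090545 were lower above 500 in both tissues (8% of members, against 8.41% of these probes). ILMN_3062860 and ILMN_2459155 (4%, against 10.3% with opposite directions) were higher in liver, by 0.62 and 0.51, and lower in brain, by a fitted -0.76 and -0.88. The livers and brains above 500 came from different animals.

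**Figure D5:**
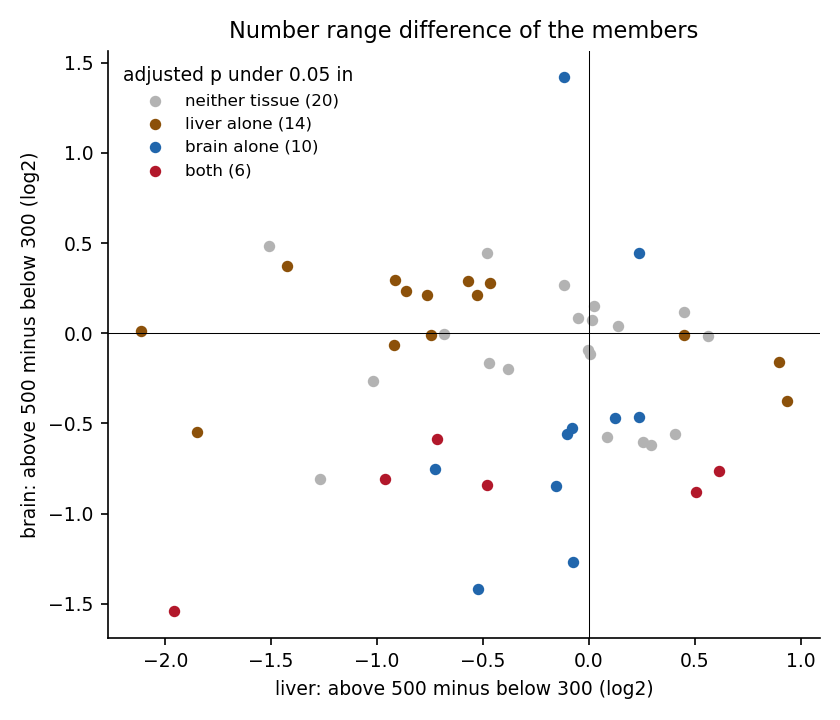
Difference between animals numbered above 500 and below 300 for each member in liver (x axis) and in brain (y axis). Values are log2 differences of background-corrected signal from the limma fit with genotype. Marks give the tissue in which the adjusted p was under 0.05. Most marked members lie below 0 in the tissue where they passed, and 6 passed in both tissues.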

How the data were processed

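The members and lists were chosen with earlier results of these data known. The deposited signal intensity of each probe is not normalised, per the file headers. A deposited detection score, a fraction between 0 and 1, stands beside each intensity. It is headed as a p-value but rises with the signal (rank correlation at least 0.966 on every array) and was therefore taken for 1 minus that p. The deposited processed values were taken as log2 values. They kept the order of the signal on each array, and their sorted values differed by at most 0.0166 between arrays of a tissue, as after quantile normalisation within the tissue. The sources used here do not give the exact transform, and lumi is named as the tool per the submitters' processing notes. No columns were identical.

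The correlations used the processed values (pandas 2.3.3, NumPy 2.4.6). Tests used limma 3.58.1 in R 4.3.3: signal was background-corrected with the normexp method from the detection scores (offset 16), quantile-normalised within each tissue on the log2 scale, filtered on detection in the tissues compared, and fitted with an intensity trend, with Benjamini-Hochberg adjustment over all probes tested. Probes were tested separately. Nothing in the labels says more of the replicates than their numbers, so p-values measure the spread between these samples. Scripts were tested on simulated data. Named were the 8 members of highest lower correlation, those at the threshold, the 3 of largest SD, the 3 most dependent on 1 animal, 1 to 2 of each correlated group and up to 3 pairs, and in each comparison the member of smallest p in each direction with up to 3 more that passed, and for each interaction the member of smallest p. Members outside this rule, named because few were counted, were chosen after their values were seen. Alternatives covered the values used, background correction, normalisation, the detection filter, the correlation, centring, the number range and each animal left out.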

Additional observations from a re-analysis of the deposited data

Results flagged for a closer look

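In groups of 6 or 8 arrays, the gap of the extreme array to its nearest neighbour, divided by the range of the group, was compared with Dixon's 95% critical value for 14 named members. It was above that value in 14 of 84 groups. The members were chosen on these values for differences between animals, and some were named because 1 animal carried their correlation. The count is therefore a description and is not set against a chance rate. Animal WT_138 was the extreme array in 5 of these. ILMN_1213805 was low in its brain (ratio 0.602), ILMN_2662468 and ILMN_1228521 were low in its fat (0.642 and 0.663), and ILMN_3052430 was high in its liver and brain (0.532 and 0.578). Animal WT_148 was the extreme array in 4. ILMN_2691901 was high in its liver, fat and brain (0.626, 0.810 and 0.602), and ILMN_2659185 was low in its fat (0.666). In the fat of animal WT_135, ILMN_2744280 and ILMN_1238674 were low (0.783 and 0.626). ILMN_2943738 was low in the liver of animal KO_597 (0.599). ILMN_1244059 was extreme in the liver of animal WT_679 (0.551) and in the brain of animal KO_175 (0.617).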

How the results depend on the processing

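Of the 50 members, 42 were also chosen with background-corrected signal and 42 with centring on the shared arrays alone, but 29 with Spearman's correlation, 27 among probes detected on every array and 31 with no detection filter. Without 1 animal, 31 to 45 were chosen again. Their median fat with brain correlation was 0.690 to 0.776 without 1 animal, and 0.720 with background-corrected signal, 0.617 with Spearman's correlation and 0.765 with the other centring. The last alternatives, and the held-out correlation of 0.724 for fat with background-corrected signal, were chosen after seeing the data.

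No member passed for knockout against wild type in liver or brain under any alternative. Without 1 animal, 0 to 3 members passed in fat and 0 to 2 in the animal means. Over all probes the counts without 1 animal were 0 to 8 in liver, 1 to 426 in fat, 0 to 1 in brain and 0 to 111 in the animal means. Adding the number range to the fit gave 24 probes in liver and 1 in brain, and 6 passed in liver below 300 only. Among probes detected on every array 9 passed in fat and 1 in brain. For the ranges, 16 to 23 members passed in liver and 13 to 19 in brain without 1 animal (4783 to 5507 and 5936 to 7130 of all probes), and 3395 probes passed in liver among those detected on every array. With deposited values 173, 54 and 2 probes passed in the contrasts of liver with fat, fat with brain and liver with brain, and 30 and 4 in the first and second among probes detected on every array. With the animal as a replicate block (consensus correlations 0.102, 0.100 and 0.108) 0 members passed in each contrast, and 78, 23 and 1 of all probes. The block gives all probes the same correlation, far below the correlations with liver that chose the members. It therefore cannot show what pairing by animal would do to the members. Of the named values under alternatives, 403 kept direction and side of the threshold, 5 passed it newly and 1, ILMN_2687032 for the range in liver without animal WT_679, no longer did. No direction turned. The cause of these shifts was not tested. Signals near background limit several members, among them ILMN_1238674, ILMN_2659185, ILMN_2744280, ILMN_1257178, ILMN_3119914, ILMN_1233991, ILMN_2943738, ILMN_2662468 and, in brain, ILMN_1213805.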
